A study of Mus musculus with 6 samples.

Results

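The cytoplasmic ribosomal protein genes are those whose products, with the ribosomal RNAs, build the ribosomes of the cytosol. They were taken by name, as genes whose symbol is Rpl or Rps with a number and at most a short suffix, together with Rplp0, Rplp1, Rplp2 and Rpsa, and with pseudogenes ending in -ps left out. The rule found 89 of the 57462 genes in the files, 53 of the large and 36 of the small subunit. Of these, 77 are the canonical genes (46 large, 31 small). The other 12 are paralogs with a specialised expression, such as Rpl3l, Rpl10l, Rpl22l1, Rpl39l and Rps27l, and copies such as Rps3a2 and Rps12l1 that GENCODE M21 lists as processed pseudogenes. The rule used names alone and no measured value. It misses genes of the ribosome with other names, such as Fau and Rack1, which are not described here.

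RNA sequencing covered 6 tumours of the murine ovarian cancer line HM1 from a model sampled early in tumour growth. In the shControl group (3 samples) the labels give the genotype as wild type, and in the shST3GAL3 group (3 samples) as a knockdown of ST3GAL3, an enzyme that adds sialic acid to galactose. Whole tumour tissue was sequenced, so host cells are included, while the strain and age of the mice and the promoter of the hairpin are not given in the labels. The labels do not state whether tumours of 1 group came from different mice, and p-values therefore cover the spread of these samples alone, which may be technical. Each library was deposited as TPM, a relative abundance per transcript length with the same total in every library, and the depth is unknown because read numbers are not kept.

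A ribosome has a large subunit, which joins amino acids and releases the chain through an exit tunnel, and a small subunit, which reads the messenger RNA. Each canonical protein is present as a single copy per ribosome, apart from the stalk proteins Rplp1 and Rplp2, and the genes are among the most highly transcribed of any growing cell. Their messenger RNAs begin with a pyrimidine tract (the terminal oligopyrimidine or TOP tract), through which the TOR kinase controls their translation. Mouse genomes hold many processed pseudogenes of them, which are copies made from messenger RNA.

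St3gal3 served as the check of the labels. The mean was 13.9 ± 0.127 TPM for shControl and 7.57 ± 0.838 TPM for shST3GAL3 (SD, n = 3 each), and all shST3GAL3 values lay below all shControl values (two-sided exact permutation test, p = 0.1, which is the lower limit of this design). The epithelial keratins Krt8, Krt18 and Krt19 were abundant. The 6 of 11 epithelial markers that passed the filter had summed levels between 1780 and 3690 TPM. Cldn4 and Muc16 were listed at 0 in every library, and Epcam and Krt7 did not exceed 1.17 and 0.85 TPM.

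Members made up a large share of the transcripts in every tumour. Their share of the TPM total was 17.8, 18.4 and 18.8% in shControl 1, 2 and 3, and 16.7, 17.2 and 18.1% in shST3GAL3 1, 2 and 3. The lowest value was in shST3GAL3 1 and the highest in shControl 3, and the groups overlapped, since shST3GAL3 3 lay above shControl 1. The means were 18.4 ± 0.522 and 17.3 ± 0.665% (SD, n = 3 each), a difference of -1.02 percentage points.

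**Figure D1:**
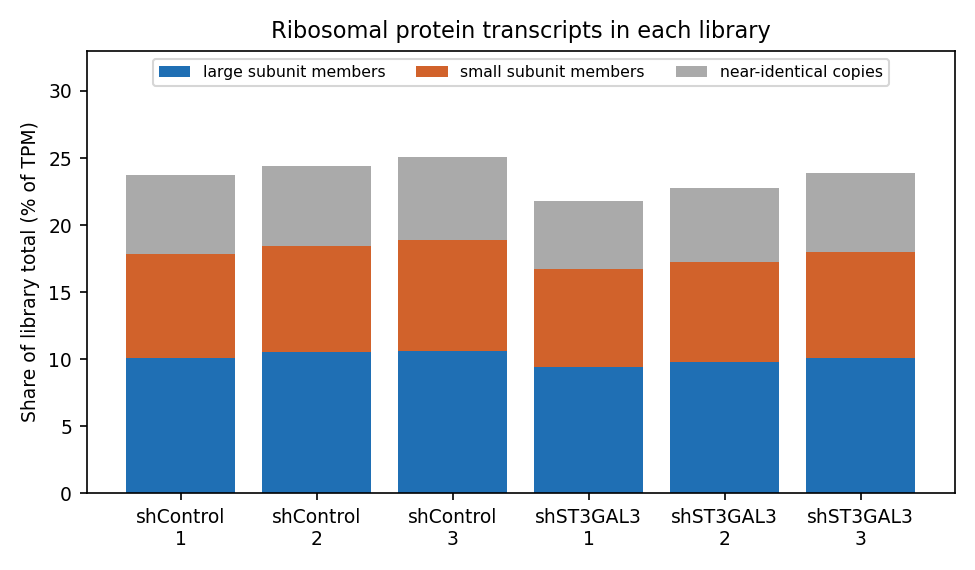
Share of each library's TPM total (vertical axis, %) in large subunit members (blue), small subunit members (orange) and near-identical copies outside the members (grey), for the 6 libraries. Members alone take 17.8 to 18.8% in shControl and 16.7 to 18.1% in shST3GAL3 libraries.

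Large subunit genes together outweighed small subunit genes by about the same factor in every tumour. The ratio of their summed TPM was 1.3, 1.32 and 1.28 in shControl 1, 2 and 3 and 1.28, 1.31 and 1.28 in shST3GAL3 1, 2 and 3. The difference between the group means (1.3 ± 0.0197 and 1.29 ± 0.0169, SD) was smaller than the SD within either group. The large subunit also has more genes. Per gene the order was the other way, with a median of 1850 TPM over the 46 canonical large subunit genes and 2300 TPM over the 31 canonical small subunit genes, as means over all 6 libraries.

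Among the highest large subunit genes were Rpl23a at 4920 TPM and Rpl32 at 4360 TPM. Rpl23a lies at the rim of the exit tunnel. The highest small subunit genes were Rps27 at 4950 TPM, Rps24 at 4860 TPM and Rps15 at 4740 TPM. These 3 did not differ beyond their spread, since their shControl values ran from 4822 to 5409 for Rps27, from 4802 to 5491 for Rps24 and from 4541 to 4847 for Rps15. The genes of the stalk, which recruits elongation factors, stood at different levels. Rplp1 stood at 4310 TPM, Rplp0, the base of the stalk, at 3690 TPM, and Rplp2 at 1610 TPM, although the stalk holds Rplp1 and Rplp2 in equal number.

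At the low end stood genes whose products are as necessary as the rest. Among canonical large subunit genes the lowest were Rpl12 at 106 TPM, Rpl5 at 367 TPM and Rpl27a at 652 TPM. Among small subunit genes the lowest were Rps20 at 355 TPM, Rps13 at 596 TPM and Rps23 at 911 TPM. Rpl12 lies at the base of the stalk, Rpl5 carries the 5S RNA into the large subunit, and Rps23 lies in the decoding centre. Only Rpl12 and Rps20 lay more than 3 median absolute deviations (on the log2 scale) from the median of their subunit, at -4.38 and -3.16 deviations. The level ranged 47.6-fold over the canonical large subunit genes and 13.9-fold over the small subunit genes.

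These low values went together with high values of near-identical copies elsewhere in the genome. A transcript of GENCODE M21 counted as a copy when it matched at least 95% of the bases over at least 80% of a member's coding region. Of the 77 canonical genes, 74 had at least 1 copy. There were 573 copies in all, 555 of them annotated as processed pseudogenes. The 568 copies that are not themselves members held 5.9, 6 and 6.21% of the TPM in shControl 1, 2 and 3 and 5.05, 5.54 and 5.89% in shST3GAL3 1, 2 and 3, so that shST3GAL3 1 was again lowest. Of all copies, 93 had a mean of 1 TPM or more.

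The outlier Rpl12 is the extreme case. It held 2.69% of the sum of itself and its copies, while Gm10275, a transcribed processed pseudogene, stood at 3820 TPM. For Rps20 the copy Gm4332 stood at 710 TPM, and Rps20 held 33.3% of the sum. For Rps18, the copy Rps18-ps6 stood at 3560 TPM and the gene itself at 1360 TPM. The coding regions show how alike these pairs are. Below, 90 bases are given 5′ to 3′ from each, from GENCODE M21 transcripts, with capitals at the bases that differ within the pair. Rpl12 and Gm10275 are identical over all 495 bases of the coding region, Rps18 and Rps18-ps6 differ at 4 of 456 aligned bases, and Rps20 and Gm4332 at 1 of 346.
Rpl12: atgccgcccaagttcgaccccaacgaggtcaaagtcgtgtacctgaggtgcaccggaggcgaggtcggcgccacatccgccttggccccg
Gm10275: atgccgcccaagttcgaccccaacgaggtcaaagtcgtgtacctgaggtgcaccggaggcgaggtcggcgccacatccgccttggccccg
Rps18: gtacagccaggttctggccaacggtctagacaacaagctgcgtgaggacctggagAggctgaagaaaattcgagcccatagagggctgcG
Rps18-ps6: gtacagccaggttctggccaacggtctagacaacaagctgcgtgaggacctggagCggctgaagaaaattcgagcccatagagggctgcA
Rps20: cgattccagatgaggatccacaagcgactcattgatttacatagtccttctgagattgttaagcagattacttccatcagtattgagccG
Gm4332: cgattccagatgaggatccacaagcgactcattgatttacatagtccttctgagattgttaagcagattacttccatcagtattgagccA
A read from a stretch without such a difference cannot be assigned to a gene by its sequence, so the level of each of these genes taken alone is uncertain.

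In all, 17 canonical genes held less than 50% of the sum of gene and copies, and 47 held at least 90%. For 8 of the 17 the leading copy is identical to the gene over the whole coding region. Rpl27a (652 TPM) stood beside Gm7536 at 5120 TPM, Rpl5 (367 TPM) beside Gm15500 at 2560 TPM, and Rps23 (911 TPM) beside Rps23-ps1 at 3260 TPM. With the copies added to each gene, the range narrowed from 47.6-fold to 6.13-fold over the large subunit and from 13.9-fold to 8.31-fold over the small subunit. The medians then were 2640 and 3390 TPM, and Rpl12 at 3930 TPM lay above the median of its subunit. Adding copies hardly raised the low values of Rps27a, Rps19 and Rpl22, which came to 977, 915 and 1040 TPM. Rps27a is made as a fusion with ubiquitin, and Rps19 is the gene most often mutated in Diamond-Blackfan anaemia.

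**Figure D2:**
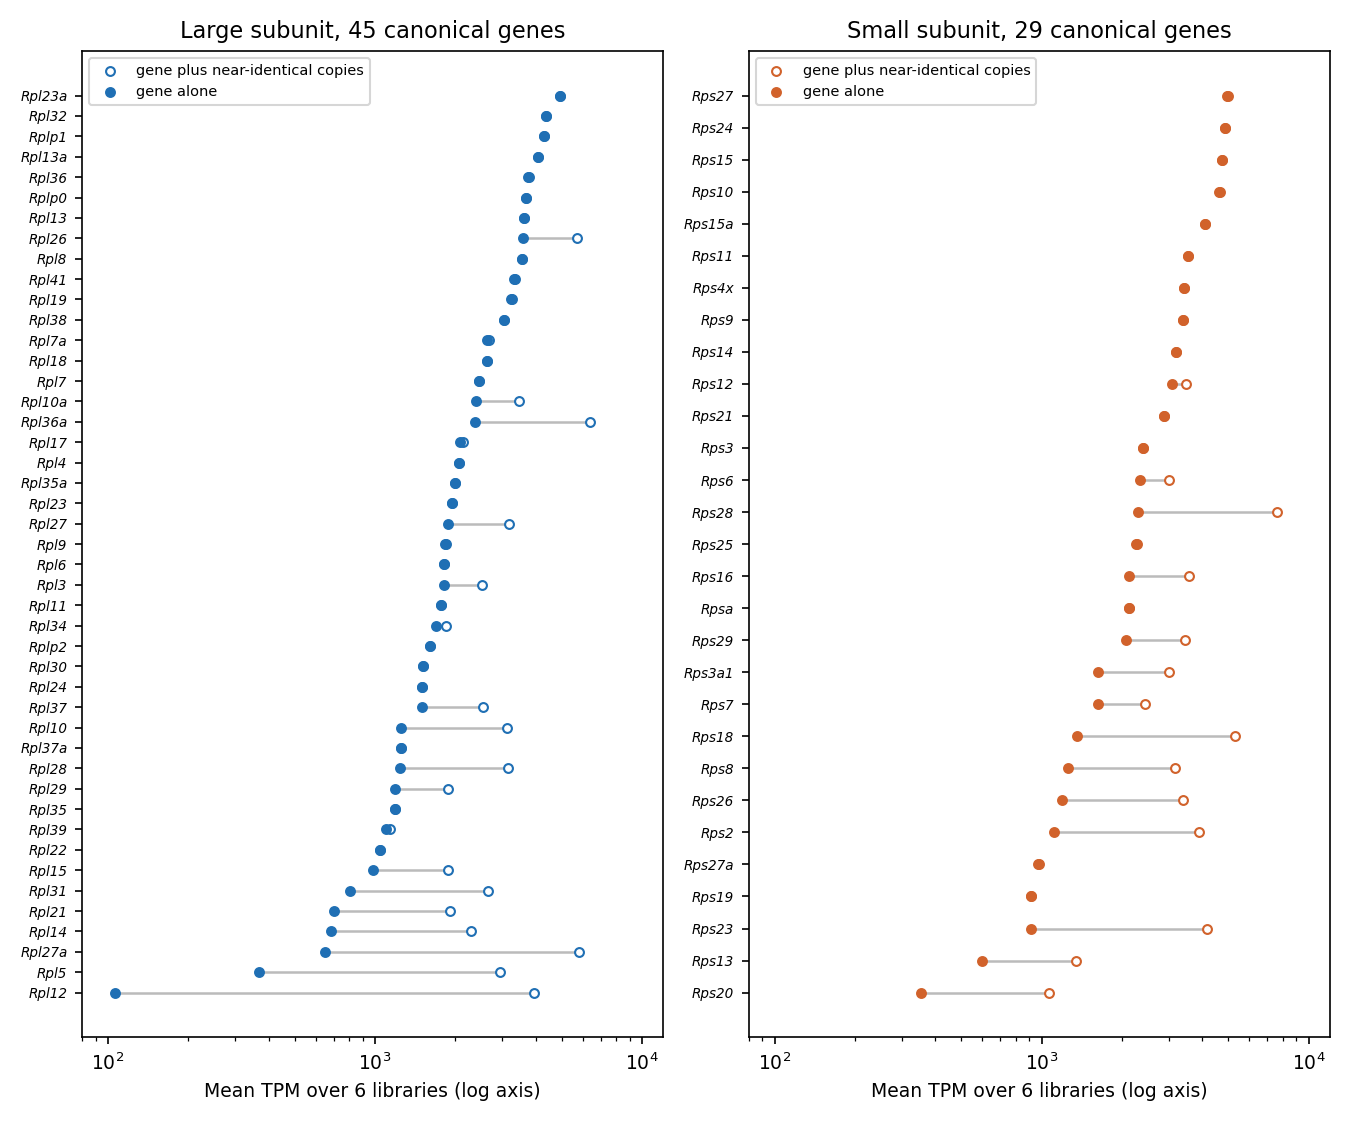
Mean TPM over the 6 libraries (horizontal log axis) of 45 canonical large subunit genes (left) and 29 canonical small subunit genes (right), for the gene alone (filled) and with its near-identical copies added (open). Rpl12 moves from 106 to 3930 TPM and Rps28 from 2300 to 7610 TPM, while genes such as Rpl23a do not visibly move.

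The 12 other matches were low, apart from Rps3a2. The retrocopy Rps3a2 stood at 1050 TPM, near its parent Rps3a1 at 1630 TPM, and Rps3a3 at 320 TPM. Rps27l, a paralog of Rps27 that p53 is known to induce, had means of 332 ± 25.5 TPM (shControl) and 315 ± 13.6 TPM (shST3GAL3) (SD, n = 3 each). Rpl22l1, a paralog of Rpl22 with a role in blood cell development, stood at 162 TPM against 1040 TPM for Rpl22, as means over all libraries. Rpl7l1, which acts in ribosome assembly, stood at 73.7 TPM. The muscle paralog Rpl3l did not exceed 1.49 TPM, the testis paralog Rpl10l was above 0 in 1 library (0.07 TPM in shControl 2), and Rpl6l and Rpl32l were listed at 0 throughout. These last 4 failed the filter of 1 TPM in at least 3 libraries, so 85 members were tested, 49 of the large and 36 of the small subunit.

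Canonical members varied little between libraries of a group. Their coefficient of variation over the shControl libraries had a median of 4.56% and ran from 0.15% for Rpl27 to 8.36% for Rps27a, and over the shST3GAL3 libraries the median was 5.75%. Over all 1274 tested genes at least as abundant as the lowest canonical member the medians were 5.49 and 9.7%. That set reaches down to the 106 TPM of Rpl12 and was not matched to the members in level. After Rps27a, the most variable canonical members over shControl were Rps19 at 8.29%, Rps2 at 7.81% and Rpl30 at 7.3%.

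The comparison of shST3GAL3 with shControl tumours asked whether the knockdown tumours differed in these transcripts. No member passed the test over all genes, by limma on log2(TPM + 1) with Benjamini-Hochberg adjusted p under 0.05. The smallest adjusted p of a member was 0.38, and 1 of the 14207 tested genes passed (0.00704%). At an unadjusted p under 0.05 there were 16 members lower and 1 higher in shST3GAL3, against 3.78% of all genes lower and 9.19% higher. Most members nevertheless lay a little lower. The log2 fold change was below 0 for 68 of the 85 (80%), against 47.3% of all tested genes. The median over members was -0.09 and the median over all tested genes 0.01. After quantile normalization these medians were -0.07 and -0.05, a difference of only -0.02. There 60 of 85 members lay below 0, and no share of all genes below 0 is given for that fit.

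All 3 shST3GAL3 values lay below all 3 shControl values for 29 of the 85 members (34.1%), against 7.76% of all tested genes. They lay above them for 2 members, Rpl41 and Rps4l (2.35%), against 15.7% of all tested genes. In bulk tissue, fewer cells with high levels and less RNA per cell cannot be told apart, and TPM is relative, so a rise of other transcripts lowers these values too.

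**Figure D3:**
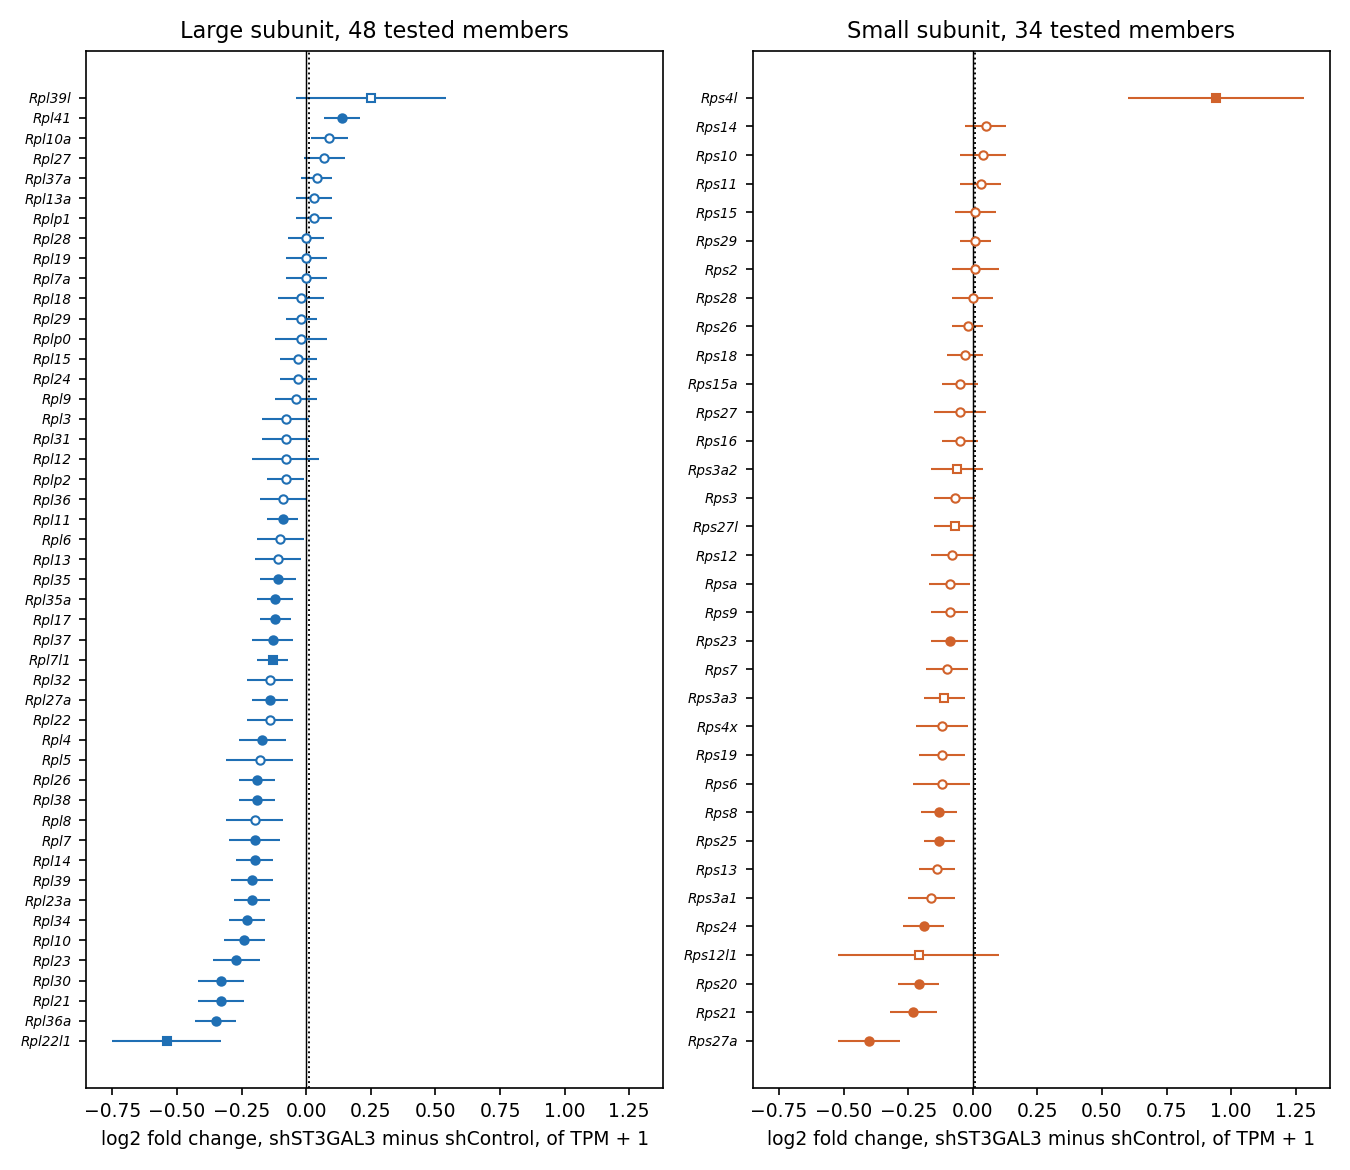
Log2 fold change of TPM + 1 (horizontal axis, shST3GAL3 minus shControl, bars: moderated SE) of 48 large subunit (left) and 34 small subunit (right) members. Squares are matches outside the canonical set, filled symbols have groups that do not overlap and the dotted line is the median of all tested genes; most symbols lie left of 0, and Rps4l and Rpl41 are the filled ones to the right.

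Both subunits gave medians slightly below 0. The median log2 fold change was -0.10 over the 46 canonical large subunit genes and -0.09 over the 31 small subunit genes. Groups did not overlap, with shST3GAL3 lower, for 19 of the 46 (41.3%) and 8 of the 31 (25.8%), against 7.76% of all tested genes. The difference between the subunits was not tested. By library, the median deviation of all members from the shControl mean was -0.05, 0 and 0.04 in shControl 1, 2 and 3 and -0.13, -0.08 and -0.03 in shST3GAL3 1, 2 and 3. Of the 77 canonical genes, 45 had their lowest value of all libraries in shST3GAL3 1 and 37 their highest in shControl 3.

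Leaving out a library changed the counts unequally, for the members and for all genes. Without shST3GAL3 1, 30 of 85 members did not overlap on the lower side (all genes 9.38%), 14 were lower at an unadjusted p under 0.05, and the median was -0.07. Without shControl 3, 29 did not overlap on the lower side (all genes 10.9%), and 3 were lower at an unadjusted p under 0.05. No share of all genes at that p is given for fits without a library, so counts at that p have no background here. The count without overlap on the lower side was highest without shST3GAL3 3, at 46 members (54.1%, all genes 17%). It was followed by 38 without shControl 1 (44.7%, all genes 13%). On the higher side, the 2 members became 6 without shST3GAL3 1 (all genes 21.2%), 5 without shControl 2 (20.5%) and 5 without shST3GAL3 2 (20.9%).

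The member with the smallest p was Rpl36a, a large subunit gene on the X chromosome. Libraries shControl 1, 2 and 3 gave 2536, 2595 and 2800 TPM and libraries shST3GAL3 1, 2 and 3 gave 1940, 2171 and 2095 TPM. Every shST3GAL3 value was below every shControl value, with means of 2640 ± 139 and 2070 ± 118 TPM (SD, n = 3 each). The log2 fold change was -0.35 (SE 0.08), with a limma p of 0.00294 unadjusted and 0.38 adjusted. Its copy Rpl36a-ps2, with an identical coding region, stood at 4020 TPM and had a log2 fold change of -0.37 (SE 0.11), so gene and copy together gave -0.36 (SE 0.10).

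Rps27a was the small subunit gene with the largest decrease in its mean relative to shControl. Libraries shControl 1, 2 and 3 gave 1011, 1101 and 1196 TPM and libraries shST3GAL3 1, 2 and 3 gave 707, 941 and 866 TPM. The groups did not overlap, shST3GAL3 1 was lowest, and 76% of the shControl mean was left (log2 fold change -0.40, SE 0.12, limma p 0.0146 unadjusted). Rps27a held 99.3% of the sum of itself and its copies.

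Rpl30 and Rpl21 showed differences of like size. For Rpl30, a protein at the interface of the subunits, shControl 1, 2 and 3 gave 1740, 1545 and 1773 TPM and shST3GAL3 1, 2 and 3 gave 1240, 1449 and 1326 TPM (log2 fold change -0.33, SE 0.09). For Rpl21, shControl 1, 2 and 3 gave 763, 747 and 831 TPM and shST3GAL3 1, 2 and 3 gave 555, 681 and 637 TPM (log2 fold change -0.33, SE 0.09). Neither overlapped between groups. Rpl21 held 36.7% of the sum with its 57 copies, and with these added the log2 fold change was -0.20 (SE 0.08). Rpl23 (2120 ± 132 against 1760 ± 134 TPM) and Rpl34 (1830 ± 116 against 1550 ± 47.9 TPM, SD, n = 3 each, shControl first) followed, at -0.27 (SE 0.09) and -0.23 (SE 0.07).

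Apart from the paralog Rpl22l1, the other members with an unadjusted limma p under 0.05 on the lower side kept between 84.8 and 88% of the shControl mean. Among them were Rpl10, Rpl14, Rpl23a, Rpl26, Rpl38, Rpl39, Rps20 and Rps21. Rpl10, one of the last proteins added to the large subunit, ran from 1251 to 1404 TPM over shControl and from 1071 to 1228 TPM over shST3GAL3. Rps21 ran from 2964 to 3329 TPM and from 2437 to 2847 TPM in the same order. Rpl38, known for its part in the translation of Hox messenger RNAs, ran from 3194 to 3334 TPM and from 2703 to 3003 TPM. In all of these the groups did not overlap. Rpl14 held 30% of the summed level of itself and its copy Rpl14-ps1, and with that copy added its groups overlapped, at a log2 fold change of -0.13 (SE 0.08, unadjusted limma p 0.158).

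At the other end, some abundant members had nearly equal means in both groups. Rps29 had means of 2070 ± 10.8 TPM for shControl and 2080 ± 47.3 TPM for shST3GAL3 (SD, n = 3 each), Rpl7a of 2630 ± 71 and 2630 ± 176 TPM, and Rpl19 of 3240 ± 38.3 and 3250 ± 276 TPM. The SE of their log2 fold changes was 0.06, 0.08 and 0.08, so differences of that size, and somewhat larger ones, could not be told from no difference. The median of -0.09 over all members is of about this size. Rpl8 had the same log2 fold change as Rpl14 counted without its copy, -0.20, but its groups overlapped: shControl 1, 2 and 3 gave 3741, 3845 and 3790 TPM, and shST3GAL3 1, 2 and 3 gave 2856, 3340 and 3765 TPM. Here the shST3GAL3 values were widely spread, with shST3GAL3 3 above shControl 1, and the SE was 0.11 against 0.07 for Rpl14.

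**Figure D4:**
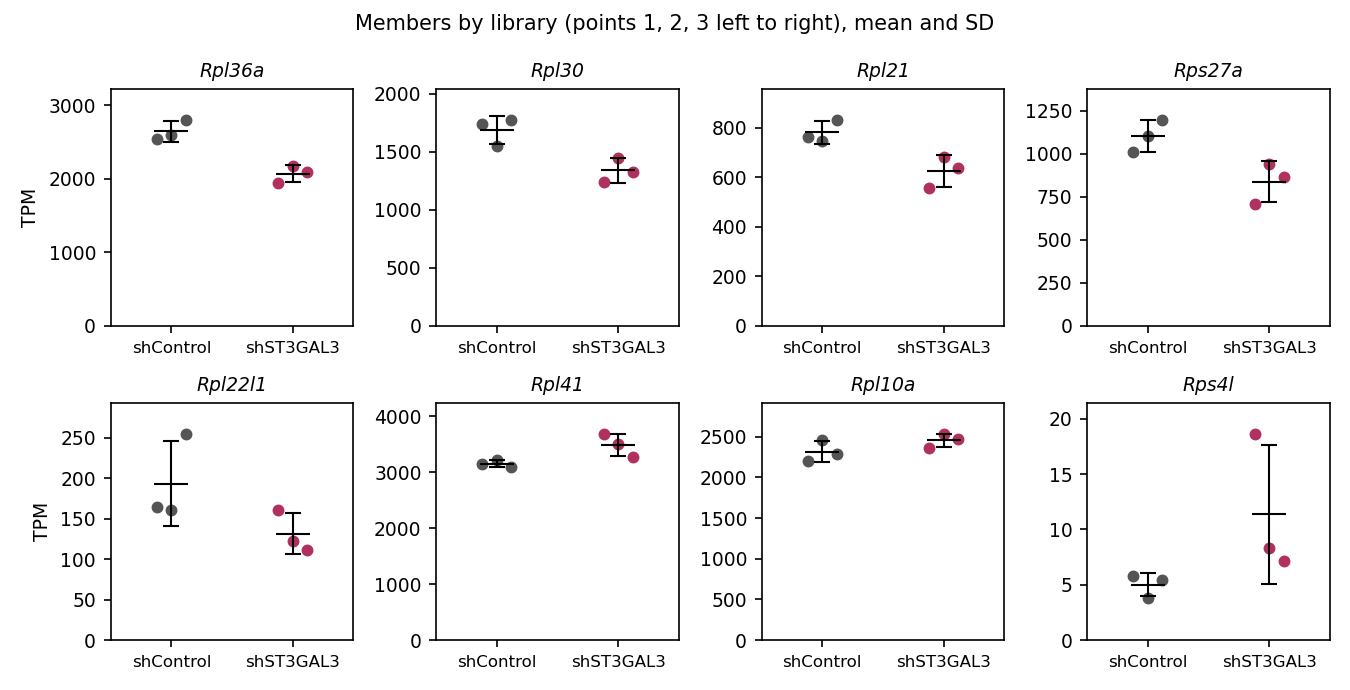
TPM (vertical axes, from 0) of 8 members in the 3 shControl and 3 shST3GAL3 libraries; points are libraries 1, 2 and 3 from left to right, bars the mean and SD. Rpl36a, Rpl30, Rpl21, Rps27a and Rpl22l1 lie lower in shST3GAL3 without overlap, Rpl41 and Rps4l higher without overlap, and Rpl10a overlaps.

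Few members lay higher. For Rpl41, which encodes the shortest ribosomal protein, shControl 1, 2 and 3 gave 3146, 3225 and 3093 TPM and shST3GAL3 1, 2 and 3 gave 3680, 3495 and 3279 TPM. The groups did not overlap, with shST3GAL3 1 highest, and the log2 fold change was 0.14 (SE 0.07). The gap between the groups, from 3225 to 3279 TPM, was smaller than the SD of the shST3GAL3 group, which was 200 TPM. For Rps4l, a transcribed processed pseudogene in GENCODE M21, shControl 1, 2 and 3 gave 5.76, 3.83 and 5.43 TPM and shST3GAL3 1, 2 and 3 gave 18.61, 8.32 and 7.13 TPM. Its log2 fold change was 0.94 (SE 0.34), and 0.55 without shST3GAL3 1. Rpl10a, Rpl27 and Rpl39l had log2 fold changes of 0.09, 0.07 and 0.25, with groups that overlapped.

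The genes were also grouped by the place of their products in the ribosome. Of the 8 genes listed for the exit tunnel, 6 did not overlap and were lower in shST3GAL3 (Rpl4, Rpl17, Rpl23a, Rpl26, Rpl35 and Rpl39), with a median log2 fold change of -0.14 over the list, while Rpl19 and Rpl31 overlapped. That is 75% of the list, beside 34.1% of all members and 7.76% of all tested genes. For Rpl23a, the most abundant of them, shControl 1, 2 and 3 gave 5074, 5256 and 5514 TPM and shST3GAL3 1, 2 and 3 gave 4485, 4786 and 4423 TPM. Of the 6 genes of the messenger RNA channel and decoding centre, 1 (Rps23) did not overlap (16.7%), and the median was -0.01. That median depends on the copies. Rps2, Rps23, Rps26 and Rps28 held 28.4, 21.8, 35.1 and 30.2% of the sum with their copies. With copies added, their log2 fold changes went from 0.01, -0.09, -0.02 and 0 to -0.10, -0.17, -0.05 and -0.09. Rps3 and Rps15 stayed at -0.07 and 0.01. Which genes overlapped changed neither here nor in the exit tunnel list. The 3 stalk genes overlapped, with a median of -0.02. Of the 2 proteins that carry the 5S RNA and bind Mdm2 when ribosome assembly fails, Rpl11 was lower without overlap (1820 ± 62.4 against 1710 ± 44.3 TPM), and Rpl5 taken alone overlapped (387 ± 13.3 against 346 ± 62 TPM, SD, n = 3 each, shControl first). Rpl5 held 12.5% of the sum with its copies. With these added, its groups did not overlap either, at a log2 fold change of -0.21 (SE 0.11). Of the 17 genes mutated in Diamond-Blackfan anaemia, 6 were lower without overlap (35.3%, near the share of all members), with a median of -0.09. None of these genes passed the limma test over all genes. The lists also differed in GC content of the coding region, which is described below. Below the median of 52.7% over canonical genes lay Rpl4, Rpl17, Rpl23a, Rpl26, Rpl31, Rpl39 and Rps23. At or above it lay Rpl19, Rpl35, the stalk genes and the other genes of the messenger RNA channel and decoding centre. Of canonical genes, 55.3% below that median and 15.4% at or above it were lower without overlap. Differences between these lists, and the part of GC content and of copies in them, were not tested.

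Among paralogs, Rpl22l1 had the lowest log2 fold change of all members. Libraries shControl 1, 2 and 3 gave 164, 161 and 254 TPM and libraries shST3GAL3 1, 2 and 3 gave 160, 122 and 112 TPM. The groups were just separate, 161 against 160 TPM, and shControl 3 stood well above the rest. The log2 fold change was -0.54 (SE 0.21, limma p 0.0405 unadjusted), and -0.33 without shControl 3. Its parent Rpl22 stood at 1090 ± 54.8 and 989 ± 88.6 TPM (SD, n = 3 each), with overlap. Rpl7l1 had means of 76.9 ± 0.456 TPM (shControl) and 70.4 ± 0.913 TPM (shST3GAL3), without overlap. All 7 parent genes of the listed paralogs had log2 fold changes below 0, from -0.24 for Rpl10 to -0.05 for Rps27. With its copies added, Rpl10 went from -0.24 to -0.10 and its groups overlapped.

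Copies were counted in the same way. Of the 90 copies that passed the filter, 59 had a log2 fold change below 0 (65.6%, against 47.3% of all tested genes), with a median of -0.09. Their groups did not overlap for 10 on the lower side (11.1%, all tested genes 7.76%, members 34.1%) and for 5 on the higher side (5.56%, all tested genes 15.7%). None of the copies passed the limma test. At an unadjusted limma p under 0.05, 7 were lower (7.78%, all tested genes 3.78%) and 4 higher (4.44%, all tested genes 9.19%). With copies added to each gene, groups did not overlap for 26 of 82 members on the lower side and for 2 on the higher side. No share of all genes is given for the summed values, so these 2 counts have no background here. Rps23 and Rps20 then had log2 fold changes of -0.17 and -0.26, against -0.09 and -0.21 alone.

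The size of the difference varied with base composition. The GC content of the coding region ran from 44.9 to 61.6% over the canonical genes. Of the 38 genes below the median of 52.7%, 21 were lower in shST3GAL3 without overlap and 1 lay above 0, and their median log2 fold change was -0.15. Of the 39 at or above it, 6 were lower without overlap, with a median of -0.02, and 14 lay above 0. Other coding genes differed by the same split: 616 of 5945 below it were lower without overlap (10.4%), with a median of -0.02, and 296 of 6234 at or above it (4.75%), with a median of 0.06. Of those other genes, 2706 (45.5%) and 3897 (62.5%) lay above 0. The genes with the smallest p were GC-poor, with 48.7% in Rpl36a, 44.9% in Rpl30, 50% in Rpl21 and 45.9% in Rps27a.

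Across the 77 genes, Pearson's r between GC content and log2 fold change was 0.56 and Spearman's rho 0.59. The genes share libraries and are not independent replicates. Over the 12179 other tested coding genes the values were 0.19 and 0.23. Libraries of the same group differed in this respect as well. Spearman's rho between GC content and a library's deviation from the shControl mean was -0.23, 0.58 and -0.52 over the 77 genes in shControl 1, 2 and 3, and 0.41, 0.38 and 0.60 in shST3GAL3 1, 2 and 3. The relation was thus as strong in shControl 2 as in the shST3GAL3 libraries. With log2 values adjusted for GC content in each library, a choice made after the relation was seen, 76 of 81 members with a coding region lay below 0, with a median of -0.13. The median over all 12260 genes in that fit was 0.001. There 25 members were lower at an unadjusted limma p under 0.05 and none passed after adjustment. No share of all genes at that unadjusted p is given for this fit, so the count of 25 has no background.

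**Figure D5:**
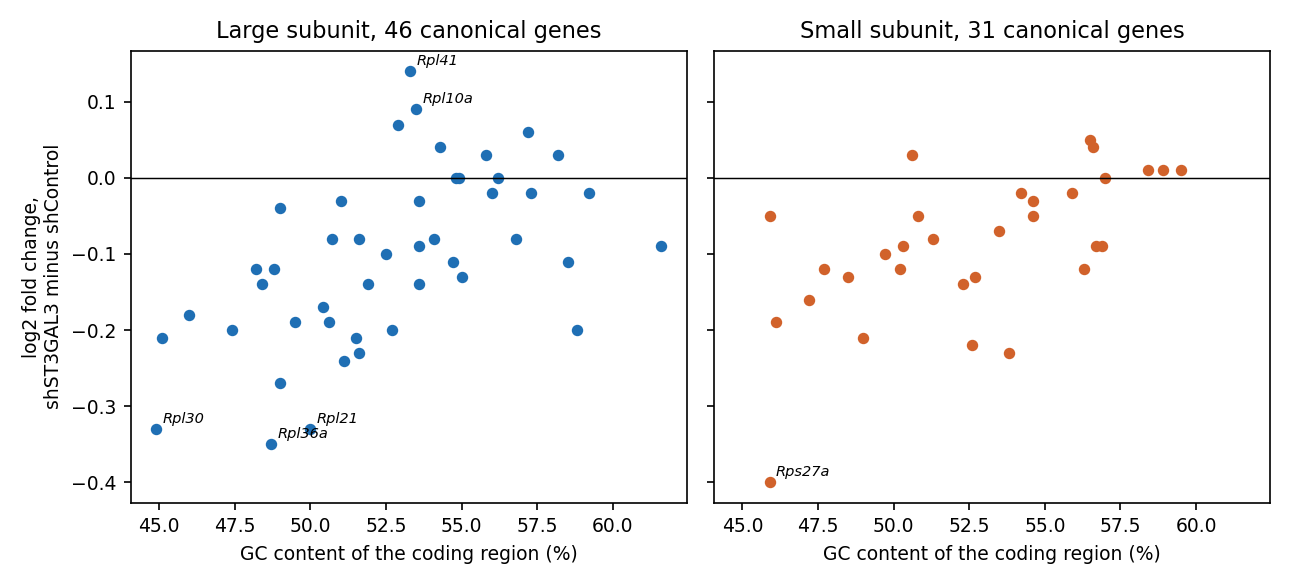
GC content of the coding region (horizontal axis, %) against log2 fold change (vertical axis, shST3GAL3 minus shControl) for the 46 canonical large subunit (left) and 31 small subunit genes (right); each point is a gene. Points rise from left to right in both panels, with Rpl30, Rpl36a, Rpl21 and Rps27a low at the GC-poor end.

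The start regions of members were read from a RefSeq table for GRCm38.p6, which held 64 of the 89 members with 76 start regions. A run of at least 8 C or T, reaching to within 5 bases of the annotated start, stood in 32.9% of them and in 9.72% of all 32851 start regions of the table. The motif CTTTCC stood on the sense strand from 10 bases before to 20 after the start in 13.2% of member regions and in 1.34% of all. The motif CCGGAAG, on either strand of the whole 300 bases, stood in 35.5% of member regions and 8.86% of all, TATAAA in 10.5 and 13.6%, and CACGTG in 10.5 and 7.15%. Of 23 named members looked up, 15 had a start region in the table, and 4 of those had a run of at least 8. All 4 are shown, with 2 that had none, so they do not stand for the share among members. Given are 20 bases before and 20 from the annotated start of these 6, named for their level or their difference, 5′ to 3′ on the gene's strand, with the pyrimidine run in capitals where one of at least 8 was found. They lie at chr7:109519175-109519214 (Rpl27a, plus strand), chr3:130730318-130730357 (Rpl34, minus), chr14:24490658-24490697 (Rps24, plus), chr3:90213629-90213668 (Rps27, minus), chrX:134585634-134585673 (Rpl36a, plus) and chr10:128549149-128549188 (Rpl41, minus).
Rpl27a: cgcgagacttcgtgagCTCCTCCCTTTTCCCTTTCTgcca
Rpl34: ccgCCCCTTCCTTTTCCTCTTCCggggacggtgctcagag
Rps24: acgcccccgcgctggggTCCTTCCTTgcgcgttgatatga
Rps27: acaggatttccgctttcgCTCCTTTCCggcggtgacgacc
Rpl36a: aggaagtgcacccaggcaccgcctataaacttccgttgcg
Rpl41: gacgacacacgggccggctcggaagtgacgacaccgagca
Rpl27a and Rpl34 have runs of 20 bases and Rps24 and Rps27 of 9. In Rpl36a and Rpl41, the lowest and highest of these in log2 fold change, the run at the annotated start is 3 bases long. The table's start may not be the start used in these tumours.

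Other genes of ribosome production and translation were described from lists. Of 18 translation factors and other TOP genes, 5 were lower without overlap (27.8%, against 7.76% of all tested genes) and 2 higher (11.1%, against 15.7%), with a median log2 fold change of -0.10. Among them Eif3e, a subunit of an initiation factor, stood at 401 ± 22 and 309 ± 48.2 TPM (log2 fold change -0.39, SE 0.12), and Hnrnpa1 at 930 ± 30.8 and 771 ± 112 TPM (-0.28, SE 0.12). The 39 ribosome biogenesis factors had a median of -0.05, with 1 lower (Nop58, 2.56%) and 2 higher (Heatr1 and Bysl, 5.13%) without overlap, both below the shares of all tested genes. The 13 tested subunits and partners of RNA polymerase I, which makes ribosomal RNA, had a median of -0.05, with Taf1d at 71.9 ± 8.18 and 53.3 ± 4.57 TPM (-0.42, SE 0.11). Medians were 0.03 for the 14 tested genes of TOR, S6 kinase and Myc signalling and 0.01 for the 12 p53 targets. None of these genes passed the limma test over all genes. At an unadjusted limma p under 0.05 there were 2 lower among the TOP genes, 1 lower among those of RNA polymerase I and 2 higher among the biogenesis factors. Of all tested genes, 3.78% were lower and 9.19% higher at that p.

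Markers of other cells differed in the same libraries. The summed level of 8 fibroblast markers ran from 768 to 1260 TPM in shControl and was 7090, 2100 and 1450 TPM in shST3GAL3 1, 2 and 3, and shST3GAL3 1, the highest here, was the library with the lowest member median (-0.13). Groups did not overlap for 7 of the 8. The 7 endothelial markers summed to 45.9 to 63.9 TPM in shControl and 88.4 to 229 in shST3GAL3 tumours, all 7 without overlap. The 10 T cell markers ran from 74.5 to 99.9 and from 92.8 to 192 TPM, and the 8 macrophage markers from 2220 to 2440 and from 2390 to 4090 TPM. Of 7 markers of B and plasma cells, the 3 tested ones (Cd79b, Igkc and Jchain) summed to 14.9, 42.3 and 2.86 TPM in shControl 1, 2 and 3 and to 3860, 296 and 38.4 TPM in shST3GAL3 1, 2 and 3, most of it the antibody light chain gene Igkc. The 4 haemoglobin genes ran from 121 to 163 and from 184 to 318 TPM, and the 6 neutrophil markers from 86.7 to 130 and from 65.1 to 343 TPM. None of these markers was listed at 0 in all libraries. The 6 tested epithelial markers summed to 3210 to 3690 TPM in shControl and 1780, 2700 and 3210 TPM in shST3GAL3 1, 2 and 3. The 8 proliferation genes, such as Mki67, summed to 778 to 867 TPM in shControl and 524 to 819 in shST3GAL3 tumours. The part of these cells in the lower member values was not tested.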

How the data were processed

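Total RNA of 6 tumours (3 shControl, 3 shST3GAL3, grouped by title) was sequenced. The deposited values are TPM per gene, made by the authors; per the submitters' processing notes the tools were fastp, HISAT and RSEM with the build GRCm39, with versions and annotation release not given in the sources used here. Because TPM does not keep read numbers, depth is unknown and intervals for counting error could not be given; precision comes from 3 libraries per group.

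A gene was kept when 3 or more libraries reached 1 TPM (14207 genes). The log2(TPM + 1) values, a scale that understates changes of low genes, were fitted by group in R 4.3.3 using limma 3.58.1 and its mean-variance trend. Benjamini-Hochberg adjustment ran over all kept genes, and the threshold was 0.05. The procedure was tested on simulated data. Errors are SD for TPM and moderated SE for log2 fold changes.

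Coding regions of GENCODE M21 (GRCm38; principal isoform) gave GC content and were compared with all its transcripts by blastn 2.17.0 to find copies. Coordinates are of GRCm38.p6, not of the files' build, and were used for start regions alone.

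Members and lists were chosen with earlier results of these data known. Named members were the 6 with the smallest p in each direction, the 3 highest and lowest of each subunit, paralogs and their parents, stalk and 5S genes, the 4 most variable over shControl, and any over 3 median absolute deviations from its subunit's median. Of other lists at most 3 genes were named. Exit tunnel, decoding and anaemia genes, other members named beside a count or a copy, and copies, were named after their values were seen. Alternatives were other pseudocounts, filters, scalings and library weights, the replicate number as a block, and leaving out each library. Summing copies and adjusting for GC content were added after seeing the data. Some members and related genes are not reported here by name and are left out of the plots of levels and of fold changes, though they stay in all counts.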

Additional observations from a re-analysis of the deposited data

How the results depend on the processing

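No member passed the limma test in any alternative run, and the median of all members ran from -0.13 to -0.07 over them. The member median minus the median of all tested genes, from unrounded values, was -0.02 with quantile normalization and -0.11 in the main fit. The median of large subunit genes was -0.07 with quantile normalization. Over all tested genes, calls were few in every fit: 1 higher with a pseudocount of 0.1, 5 higher and 3 lower with library weights, 0 lower with GC adjustment, and 0 to 2 higher and 1 to 2 lower when each library was left out in turn.

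Members with log2 fold changes near 0 changed sign. With copies summed, Rpl10a came to -0.01, Rpl27 to -0.02 and Rps2 to -0.10. With GC adjustment Rplp1 came to -0.03, Rps15 to -0.05 and Rps2 to -0.05. Rps15 came to 0, just below, and Rps2 to -0.01 both with median-ratio scaling and with the members left out of the total, and with library weights they came to -0.02 and -0.04. Rplp0 came to 0.06 with quantile normalization and 0.02 with library weights. Leaving out each library in turn gave -0.06 to 0.49 for Rpl39l, -0.16 to 0.07 for Rpl12, -0.12 to 0.02 for Rps27, -0.03 to 0.06 for Rps15, -0.10 to 0.07 for Rplp0 and -0.03 to 0.07 for Rps2. The cause was not tested.

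The replicate numbers did not pair the libraries, since deviations of same-numbered libraries correlated at 0.01, -0.08 and 0.04, and not every library correlated best with its own number. With the replicate number as a block, 0 members passed, and 10 were lower and 1 higher at an unadjusted p under 0.05, against 16 and 1 without it. Without a filter on low values that count was 7 lower, with median-ratio scaling 24. For these alternative fits no share of all genes at that p is given. The deposited TPM limit what can be said of genes with identical copies.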

Other observations

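Genes of the mitochondrial ribosome, which are encoded in the nucleus but serve the separate ribosomes of mitochondria, were listed after the data were seen, 78 in all. Their median log2 fold change was -0.04, with 49 below 0 (62.8%, against 47.3% of all tested genes). Groups did not overlap for 6 lower (7.69%, against 7.76% of all tested genes) and 2 higher in shST3GAL3 (2.56%, against 15.7%). The smallest p was that of Mrps18c, at 69.6, 60.4 and 74.9 TPM in shControl 1, 2 and 3 and 52.3, 56.4 and 48.5 TPM in shST3GAL3 1, 2 and 3 (log2 fold change -0.37, SE 0.10). None passed the limma test over all genes, and 2 were lower and 0 higher at an unadjusted p under 0.05. Of all tested genes, 3.78% were lower and 9.19% higher at that p.

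Among copies of members, Rps13-ps2 was the one with the smallest p. It was higher in shST3GAL3 without overlap, at a log2 fold change of 0.67 (SE 0.13), while its parent Rps13 stood at -0.14 (SE 0.07) with overlap. Its mean level was 94.3 TPM. Its aligned sequence matches the coding region of Rps13 at 100% of bases, so the level of each taken alone is uncertain. Rps13 with its copies added gave a log2 fold change of -0.06 (SE 0.06) with overlap. Rps13-ps2 was chosen after its value was seen and did not pass the limma test over all genes.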
